A study of Mus musculus with 5 samples.

Results

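The 87 cytosolic ribosomal protein genes of this dataset were taken from a table of 24046 gene symbols by name: symbols that began with Rpl or Rps followed by a digit, together with Rpsa, Rplp0, Rplp1 and Rplp2, less the S6 kinase genes (Rps6k) and the symbols marked as pseudogenes (-ps). Of these, 52 belonged to the large ribosomal subunit (Rpl) and 35 to the small subunit (Rps). The name rule also took 4 symbols that are not standard ribosomal proteins: Rps19bp1, a binding partner of RPS19, Rpl7l1, a nucleolar relative of RPL7, Rps27rt, a retrogene copy of Rps27, and Rps4l, annotated in GENCODE M21 as a processed pseudogene. It left out ribosomal protein genes with other names, of which Fau and Gnb2l1 (Rack1) are described at the end.

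Expression was measured by bulk RNA sequencing of hematopoietic stem cells (HSCs) from mice that had been transplanted with donor bone marrow. All donors were homozygous for Syncrip alleles flanked by loxP sites, and Syncrip encodes an RNA-binding protein. Donors of the WT group lacked the Mx1-Cre transgene and donors of the KO group carried it; Mx1-Cre is driven by an interferon-inducible promoter that acts in blood cells and in other tissues. Marrow of both groups was placed in irradiated congenic CD45.1 recipients, whose own cells were left out by the sort, every recipient was injected with pIpC, an interferon inducer, 6 weeks later, and cells were harvested 3 weeks after pIpC and 9 weeks after transplant. Donor cells (CD45.2+) were sorted as Lin-, Sca1+, cKit+, CD150+ and CD48-. The WT group had 3 libraries, numbered 1 to 3, and the KO group had 2, numbered 2 and 3, so a comparison of single values by permutation cannot go below a two-sided p of 0.2. The labels give no age and do not say whether a library came from 1 mouse or from a pool, and the p-values given here measure the spread between these libraries.

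Ribosomal proteins, together with ribosomal RNA, build the ribosome, whose small subunit reads the messenger RNA and whose large subunit joins amino acids. Each protein is needed in roughly equal numbers, and cells adjust the output of these genes mainly through translation: most of their messenger RNAs begin with a run of pyrimidines, the terminal oligopyrimidine (TOP) motif, through which the mTORC1 kinase and the protein LARP1 control how well they are translated. HSCs make less protein than the progenitors they give rise to, and inherited loss of a single copy of certain ribosomal protein genes causes the anemia of Diamond and Blackfan. The values analysed here are RNA levels and hold no measure of translation.

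Start-site sequences are shown first, because the pyrimidine run is the feature that these genes share. RefSeq promoters (250 bases before to 50 bases after the annotated start, GRCm38.p6) were matched for 66 of the 87 genes. On the sense strand, a run of at least 8 pyrimidines lay within 50 bases of the start in 53 of the 66 (80.3%), against 39.3% of 27025 mouse genes searched in the same way. The 30 bases around the annotated start (15 on each side) follow for the genes with the highest and the lowest fold changes, as far as they were matched, 5′ to 3′ on the gene's strand, with the longest pyrimidine run of the window in capitals (the first one for Rps27rt, which had a later run of equal length).
Rpl13 (chr8:123102335-123102364, + strand): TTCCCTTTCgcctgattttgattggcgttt
Rpl38 (chr11:114668565-114668594, + strand): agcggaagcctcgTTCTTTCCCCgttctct
Rplp2 (chr7:141447636-141447665, + strand): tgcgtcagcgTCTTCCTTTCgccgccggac
Rpl22l1 (chr3:28805493-28805522, + strand): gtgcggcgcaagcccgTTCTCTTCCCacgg
Rps10 (chr17:27635230-27635259, - strand): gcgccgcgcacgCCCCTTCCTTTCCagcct
Rps2 (chr17:24720048-24720077, + strand): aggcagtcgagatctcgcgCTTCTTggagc
Rps4x (chrX:102189377-102189406, - strand): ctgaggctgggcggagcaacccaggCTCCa
Rps15a (chr7:118116133-118116162, - strand): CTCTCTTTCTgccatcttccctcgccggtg
Rps27rt (chr9:114982725-114982754, - strand): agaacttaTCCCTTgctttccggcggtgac

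Rpl13, Rpl38, Rplp2, Rpl22l1, Rps10 and Rps15a had runs of 9 to 13 pyrimidines, whereas the windows of Rps2, Rps4x and Rps27rt held runs of 4 to 6. Within 50 bases of the start, a run of at least 8 was found in 85% of the 20 matched genes with a limma p under 0.05 between KO and WT (below) and in 79.1% of the 43 other tested genes. The letters CCGGAAG on either strand, the core bound by ETS factors such as GABP, were present in 39.4% of the 66 promoters and in 9.93% of all promoters. AAGATGG on either strand, the core of the YY1 site, was present in 15.2% against 7.28%. TATAAA on the sense strand was present in 9.09% against 9.77%. Read on the opposite strand, CCGGAAG is CTTCCGG and its pyrimidines can be part of a run. These matches describe letters in a window and are not measured binding sites.

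Syncrip, the targeted gene, checked the genotypes: WT 1, WT 2 and WT 3 had 1944, 1440 and 1794 normalized reads for it, KO 2 had 294 and KO 3 had 343. The fold change on the log2 scale was -2.43 (SE 0.22; adjusted p = 0.0352 by limma). The libraries held 12539599 (KO 3) to 22779536 (WT 3) reads, and both KO libraries were the shallower ones. All 7 genes listed as markers of the sorted HSCs had reads in every library. So did all 9 genes of the neutrophil list below, and detection alone does not tell cell types apart. The 7 HSC markers took 0.103%, 0.0891% and 0.0728% of the reads in WT 1, WT 2 and WT 3. In KO 2 and KO 3 they took 0.0681% and 0.0867%. KO 2 also had reads for all 8 genes of a list of adipocyte markers, which took 0.115% of its reads against 0.000367% to 0.00294% in the other 4 libraries, with Ucp1 and Cidea at 0 outside KO 2. A list of 9 neutrophil genes took 5.77% to 6.90% of the reads in WT, 5.15% in KO 2 and 2.52% in KO 3. Its genes did not all go the same way. Ltf, Ngp and Camp were below all WT values in both KO libraries. Elane (107246 normalized reads against 71505 to 100807 in WT) and Prtn3 (36288 against 23107 to 25116) were above all WT values in KO 2. Both were within the WT range in KO 3. Markers of cells that the sort leaves out, of which 6 of 7 were in the table, took 0.00908% to 0.0148% in WT, 0.00697% in KO 2 and 0.00234% in KO 3. In the summed shares of both the neutrophil list and this one, the KO libraries were below all WT libraries. The part of these differences in the results below was not tested, except where a value without a library is given.

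Ribosomal protein genes together took a larger share of the reads in the KO libraries. The 87 genes held 1.99%, 1.38% and 1.72% of all reads in WT 1, WT 2 and WT 3, and 2.26% and 2.12% in KO 2 and KO 3. Both KO values were above all WT values, but KO 3 was closer to WT 1 than WT 1 was to WT 2. Large subunit genes held 1.17%, 0.841% and 1.02% of reads in WT and 1.36% and 1.33% in KO. For small subunit genes the shares were 0.821%, 0.535% and 0.694% in WT and 0.903% and 0.794% in KO, so KO 3 lay below WT 1. Reads in large subunit genes per read in small subunit genes came to 1.42, 1.57 and 1.47 in WT and to 1.502 and 1.67 in KO, and these groups overlapped. A change in RNA per cell and a change in the mix of sorted cells cannot be told apart in bulk samples.

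**Figure D1:**
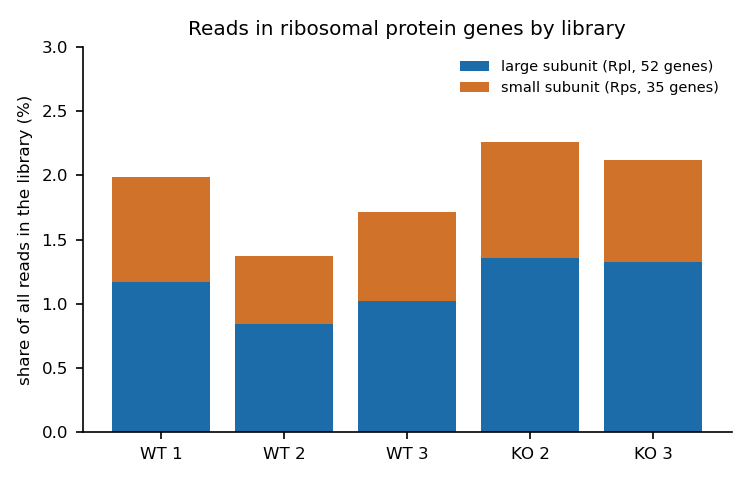
Bars show the share of all reads in a library (%) that fell in large subunit genes (blue) and small subunit genes (orange). The total was 1.38% to 1.99% in the 3 WT libraries and 2.12% and 2.26% in the 2 KO libraries, and WT 2 was the lowest.

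Gene by gene, a part of the family was higher in KO and no member was lower at the same threshold. Of the 84 members that reached 10 normalized reads in 2 or more libraries (49 large, 35 small; Rpl10l, Rpl39l and Rpl3l did not), none passed limma's adjusted p of 0.05, and neither did any member by edgeR, although 29 had an unadjusted p under 0.05 by either tool. Over all 13661 genes tested, 0.00732% passed at the adjusted threshold, which is Syncrip alone. The 29 members at an unadjusted limma p under 0.05 were all higher in KO (34.5% of those tested, 16 large and 13 small), against 13.3% of all genes. None was lower, against 14.5% of all genes. In 35 members (41.7%; 20 large and 15 small) both KO values were above all WT values, against 23.9% of all genes, and in none were both below, against 23.2%. The lowest adjusted p of any member was 0.0815.

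DESeq2 on the recovered reads called 23 members higher at an adjusted p under 0.05 (27.4%; 16 large and 7 small), against 9.54% of all genes, and none lower, against 9.81%. The outcome therefore depended on the tool. Without KO 2, limma called 14 members higher (16.7%) at the same threshold, against 9.9% of all genes, and 2 lower (2.38%), against 12.2%. Without WT 2, no member was called by limma. At an unadjusted p under 0.05, 22 were then higher, against 10.5% of all genes, and 3 lower, against 11.8%. Without KO 3 none was called, 22 were higher at an unadjusted p under 0.05, against 5.74% of all genes, and 0 were lower, against 8.26%.

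The typical member differed little. The median log2 fold change was 0.30 for large and 0.31 for small subunit genes, against 0.02 over all genes tested. The fold change was positive in 59 members and negative in 25. Without WT 2 these medians were 0.14 and 0.10, less than the main values by over 1.5 times, and without KO 2 they were 0.13 and 0.16.

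WT libraries differed from each other by as much as the groups did. Relative to the mean of the other 2 WT libraries, the median member was higher by 0.34 (large) and 0.39 (small) on the log2 scale in WT 1 and by 0.13 and 0.13 in WT 3, and lower in WT 2, at -0.46 and -0.53. WT 2 was the lowest of all 5 libraries for 66 of the 84 members, and for 1738 of the 13661 genes tested. In 76 members the WT libraries stood in the order WT 1, WT 3, WT 2 from high to low, as they did in 2621 genes tested. The direction in WT was thus shared by nearly the whole family.

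**Figure D2:**
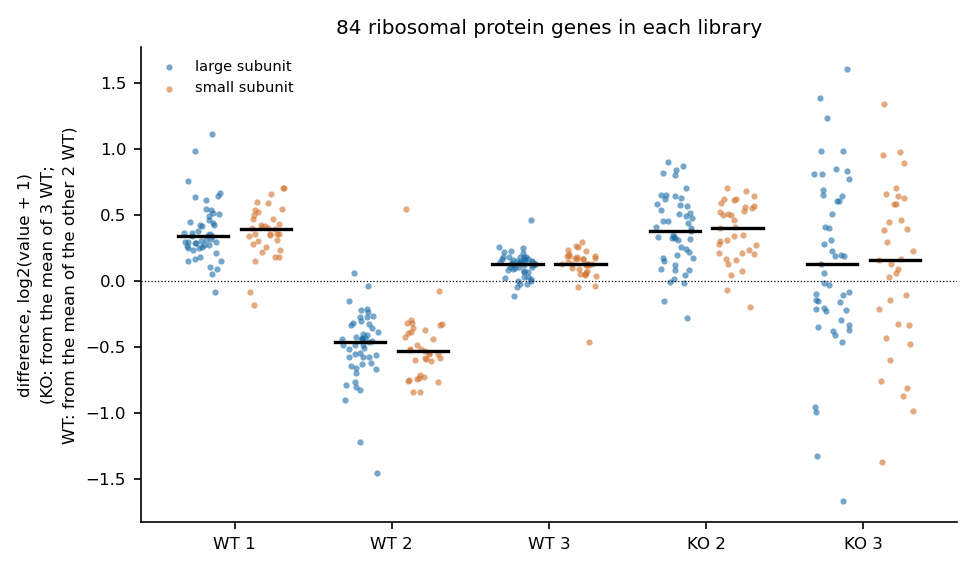
Each point is 1 of 84 ribosomal protein genes (blue, large subunit; orange, small subunit) and the vertical axis is its difference in log2(value + 1) from the mean of the 3 WT libraries (KO) or of the other 2 WT libraries (WT); black lines are medians. Nearly all members lay above 0 in WT 1 (medians 0.34 and 0.39) and below it in WT 2 (-0.46 and -0.53), whereas those of KO 3 ran from -1.67 to 1.61.

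The 2 KO libraries differed from WT in unlike ways. Relative to the WT mean, 78 of the 84 members were higher in KO 2, with a median difference of 0.38 (large) and 0.40 (small) and a range of -0.28 to 0.90. In KO 3 only 48 were higher, the medians were 0.13 and 0.16, and the range was -1.67 to 1.61. The interquartile range of the members' differences was 0.36 in KO 2 and 0.86 in KO 3, against 0.21, 0.27 and 0.10 in WT 1, WT 2 and WT 3. Over all genes tested it was 0.72 in KO 2 and 1.31 in KO 3, and 0.57, 0.51 and 0.44 in the WT libraries, so the spread of the family was wider in KO 3 where that of all genes was wider too. The difference was positive in both KO libraries for 48 members, positive in KO 2 and negative in KO 3 for 30, and negative in both for 6. No member was negative in KO 2 and positive in KO 3.

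**Figure D3:**
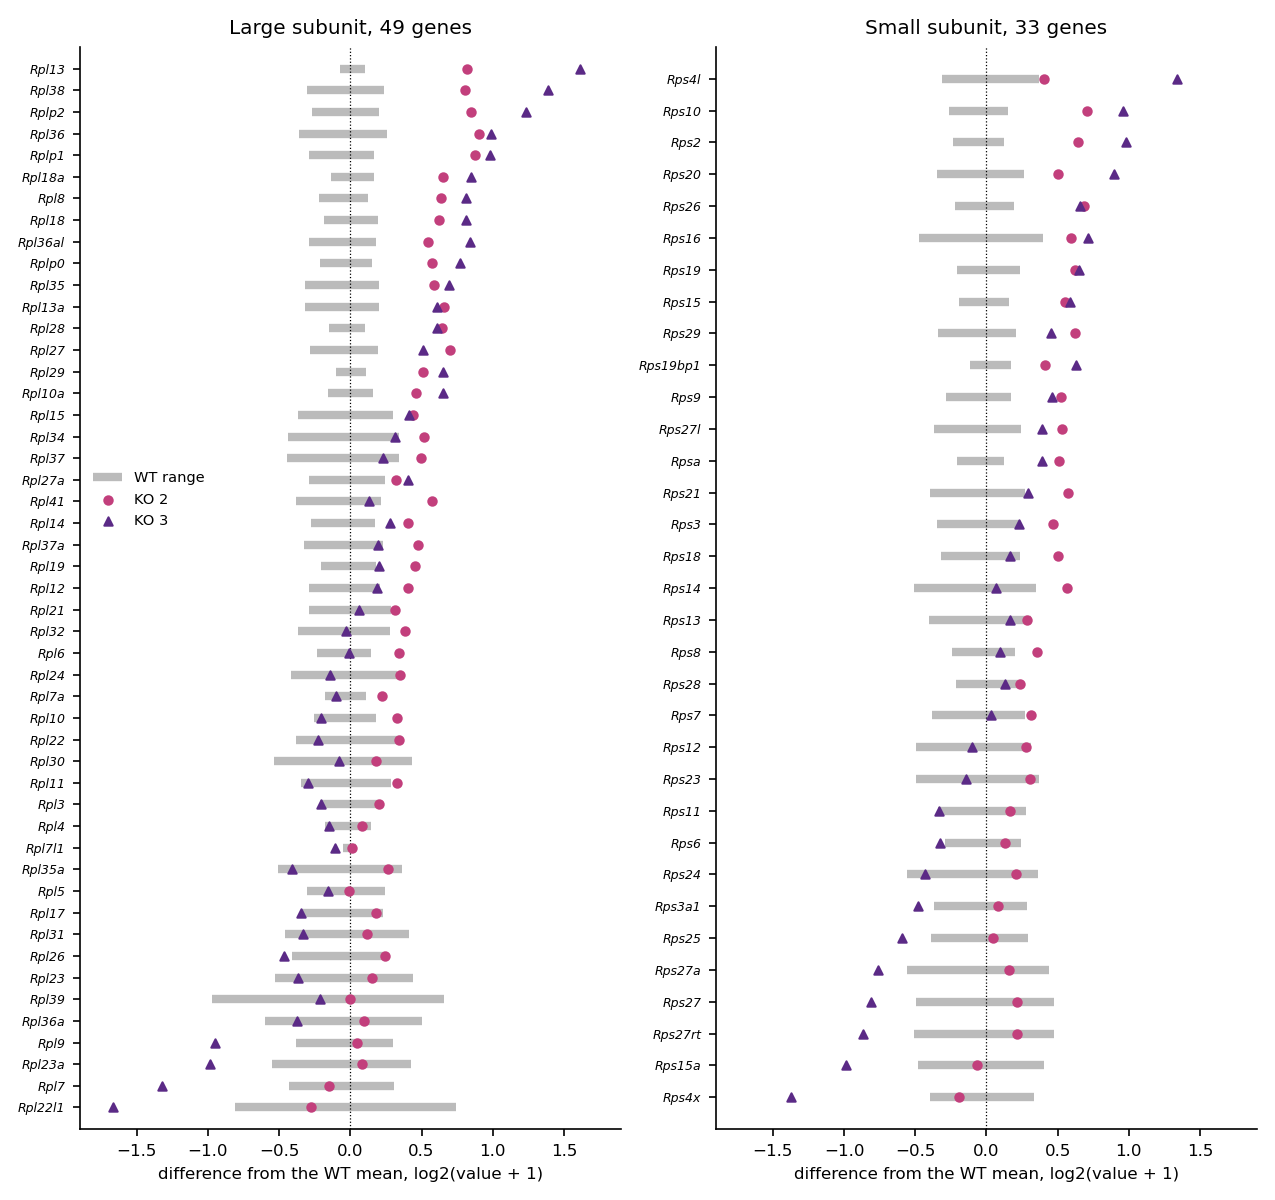
Tested members of the large (49 genes) and small (33 of 35 genes) subunit are ordered by log2 fold change, with the range of the 3 WT libraries (grey bar), KO 2 (circle) and KO 3 (triangle) as differences from the WT mean in log2(value + 1). KO 3 lies outside the WT range at both ends of the order, and KO 2 mainly at the upper end.

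Among large subunit genes the highest fold changes were those of Rpl13, Rpl38 and Rplp2. Rpl13, whose human counterpart is mutated in a skeletal dysplasia, had 10193, 9356 and 9024 normalized reads in WT 1, WT 2 and WT 3 and 16762 and 29063 in KO 2 and KO 3. WT libraries lay within a narrow band and both KO libraries were well above it (log2 fold change 1.21, SE 0.24; unadjusted p = 0.000822, limma adjusted p = 0.0815; DESeq2 adjusted p = 0.000142). KO 3 was at 3.05 times and KO 2 at 1.76 times the WT mean of 9524 ± 603 (SD, n = 3).

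Rpl38, a small protein that is needed for translation of certain Hox messenger RNAs in the mouse embryo, had 1282, 883 and 1147 normalized reads in WT and 1903 and 2854 in KO. Both KO values were above the WT values (log2 fold change 1.09 with SE 0.25, limma adjusted p = 0.0815). Rplp2, a protein of the stalk described next, had 4031, 2916 and 3687 in WT and 6307 and 8268 in KO, again without overlap (1.04, SE 0.21, limma adjusted p = 0.0815).

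The stalk is the flexible arm of the large subunit that recruits elongation factors, and it is built from Rplp0, which anchors Rplp1 and Rplp2 near Rpl12. Rplp1 had 4056, 2961 and 3930 normalized reads in WT and 6634 and 7147 in KO (log2 fold change 0.93 with SE 0.19, limma adjusted p = 0.0815). Rplp0 had 20195, 16706 and 21449 in WT and 28801 and 33008 in KO (0.67, SE 0.19, limma adjusted p = 0.0892). Rpl12 had 2728, 1927 and 2494 in WT and 3125 and 2687 in KO, so KO 3 lay within the WT range (0.30, SE 0.20, limma adjusted p = 0.363). The 3 P proteins thus did not overlap between the groups while Rpl12 did, where 23.9% of all genes had both KO values above all WT values. By DESeq2 the 3 had adjusted p-values under 0.05, as 9.54% of all genes did in the same direction. Over the 4 genes the median log2 fold change was 0.80. In values adjusted for the GC content and length of the transcripts (described below, and called adjusted fold changes from here), that median was 0.49, and Rplp1 stood at 0.46, Rplp2 at 0.75 and Rplp0 at 0.51.

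The lowest fold changes among large subunit genes belonged to Rpl22l1, Rpl7 and Rpl23a, and they came from KO 3. Rpl22l1, a paralog of Rpl22, had 892, 303 and 557 normalized reads in WT and 439 and 167 in KO (log2 fold change -0.97 with SE 0.52, limma adjusted p = 0.252). Rpl7 had 7321, 4399 and 6437 in WT and 5345 and 2366 in KO (-0.73, SE 0.35, limma adjusted p = 0.205). Rpl23a, which lies at the exit of the nascent chain tunnel, had 1791, 911 and 1450 in WT and 1413 and 671 in KO (-0.45, SE 0.37, limma adjusted p = 0.445). In all 3 genes KO 2 was within the WT range and KO 3 below it. With KO 2 left out, Rpl7 was called lower by limma (-1.32, adjusted p = 0.0237), and its adjusted fold change was -0.34.

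Among small subunit genes Rps4l, Rps10 and Rps2 had the highest fold changes. Rps10, which lies near the messenger RNA entry and is mutated in some families with Diamond-Blackfan anemia, had 2153, 1618 and 2099 normalized reads in WT and 3163 and 3768 in KO (log2 fold change 0.83 with SE 0.20, limma adjusted p = 0.0816). Rps2, a protein of the messenger RNA entry tunnel, had 10796, 8406 and 10709 in WT and 15458 and 19515 in KO (0.81, SE 0.20, limma adjusted p = 0.0818). Rps4l had 238, 319 and 200 in WT and 328 and 629 in KO (0.87, SE 0.36, limma adjusted p = 0.161). The groups did not overlap for these 3 genes, though KO 2 was only just above WT 2 for Rps4l. The adjusted fold changes were 0.53 for Rps10, 0.42 for Rps2 and 0.16 for Rps4l.

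The lowest small subunit genes were Rps4x, Rps15a and Rps27rt. Rps4x, an X-linked gene, had 5524, 3336 and 4570 normalized reads in WT and 3827 and 1692 in KO (log2 fold change -0.78 with SE 0.35, limma adjusted p = 0.181). Rps15a had 1654, 896 and 1323 in WT and 1198 and 632 in KO (-0.52, SE 0.34, limma adjusted p = 0.333). Rps27rt had 1558, 790 and 1152 in WT and 1302 and 615 in KO (-0.33, SE 0.37, limma adjusted p = 0.587). Here too KO 2 was inside the WT range and KO 3 below it, and without KO 2 limma called Rps4x lower (-1.37, adjusted p = 0.0204). Adjusted for composition and length, Rps15a stood at -0.13 and Rps27rt at 0.08. The values of Rps27rt were 95.3% to 99.6% of those of Rps27 in every library, so reads of the 2 near-identical copies may be shared, which was not tested.

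The order of the members went with the base composition of their coding sequences. Across 83 tested members with a coding sequence in GENCODE M21, the share of G and C ran from 39.9% (Rpl22l1) to 61.6% (Rpl36). The difference from the WT mean was correlated with that share in KO 2 (Pearson's r 0.77, Spearman's rho 0.76) and in KO 3 (0.72 and 0.73). The WT libraries showed relations of both signs: WT 2 against the other 2 had r 0.62, WT 1 had -0.62 and WT 3 had -0.22. These correlations run across genes of the same libraries, which share depth and composition, and genes are not independent replicates.

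Split by coding composition, the 28 members of lowest GC content (39.9% to 50.6%) had a median log2 fold change of -0.09, the 28 in the middle (50.6% to 54.6%) 0.22, and the 27 of highest GC content (54.6% to 61.6%) 0.63. Of these 28, 28 and 27 genes, 3, 4 and 21 had an unadjusted p under 0.05. In KO 3 the medians were -0.34, 0.11 and 0.65, so the sign differed between the ends. In KO 2 they were 0.16, 0.35 and 0.62, all above 0. In WT 2 all were below 0, at -0.58, -0.53 and -0.33.

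**Figure D4:**
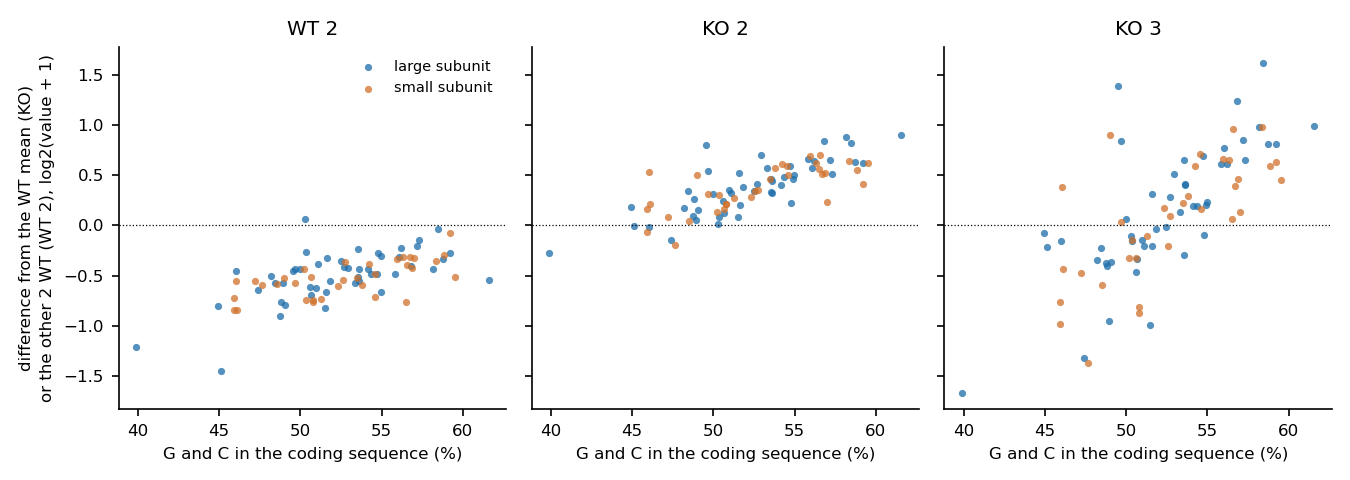
Each point is a tested ribosomal protein gene with a coding sequence (83 genes), plotted by the percentage of G and C in that sequence and by its difference in log2(value + 1) from the mean of the 3 WT libraries (KO 2, KO 3) or of the other 2 (WT 2). The difference is larger at higher GC content in each panel (Pearson's r 0.62 in WT 2, 0.77 in KO 2 and 0.72 in KO 3), and in KO 3 it crosses 0.

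The same direction held outside the family. Across the 12931 other tested genes that were matched to GENCODE M21, the difference from the WT mean had an r of 0.39 with transcript GC content in KO 2 and of 0.53 in KO 3, and for WT 2 against the other WT libraries r was 0.24. Members and other genes had similar median transcript GC content (51.6% and 50.8%), and members had shorter transcripts (median 771 against 2593 bases). Fitted over 13015 genes, the slope of log2 values for each 10% of GC was 0.90 in KO 3, 0.39 in KO 2, 0.09 in WT 2, -0.26 in WT 1 and -0.20 in WT 3. Composition was thus related to the difference between the groups in the whole table, and the source of this relation was not tested.

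After the linear trend on transcript length and GC content was removed from every library, the median log2 fold change was 0.20 for large and 0.15 for small subunit genes. No member passed limma's adjusted threshold (lowest adjusted p 0.135), and 22 had an unadjusted p under 0.05, all higher in KO (26.2%), against 6.81% of all genes higher and 8.73% lower. In 30 members (35.7%) both KO values were above all WT values, against 15.9% of all genes, and in none were both below, against 17.7%. The value of Rpl13 became 0.75 and that of Rpl38 0.81, while Rps4x stood at -0.59 and Rpl22l1 at -0.09. Rps20 had the highest value (1.42), on a median transcript length of 3706 bases that is far longer than its coding sequence.

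The first 90 coding bases of 7 genes at the ends of the fold-change order follow, with G and C in capitals (GENCODE M21 annotation, GRCm38, spliced, on the gene's strand; coordinates span the printed bases with any intron between them).
Rpl13 (chr8:123102659-123102748, coding GC 58.5%): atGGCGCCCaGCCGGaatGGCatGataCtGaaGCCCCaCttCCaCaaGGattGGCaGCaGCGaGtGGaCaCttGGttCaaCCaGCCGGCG
Rplp2 (chr7:141447909-141447998, coding GC 56.8%): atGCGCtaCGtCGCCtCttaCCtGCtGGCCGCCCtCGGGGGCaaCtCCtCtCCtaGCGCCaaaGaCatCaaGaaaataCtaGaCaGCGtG
Rps2 (chr17:24720276-24720365, coding GC 58.4%): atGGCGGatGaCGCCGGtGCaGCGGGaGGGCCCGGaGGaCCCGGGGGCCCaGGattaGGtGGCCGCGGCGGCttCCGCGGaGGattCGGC
Rpl38 (chr11:114668812-114671759, coding GC 49.5%): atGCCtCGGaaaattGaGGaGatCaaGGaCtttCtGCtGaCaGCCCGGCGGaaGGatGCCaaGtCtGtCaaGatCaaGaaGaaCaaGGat
Rpl22l1 (chr3:28805535-28806580, coding GC 39.9%): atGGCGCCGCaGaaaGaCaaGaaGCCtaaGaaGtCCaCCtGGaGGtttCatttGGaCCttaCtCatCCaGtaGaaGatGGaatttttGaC
Rpl7 (chr1:16103609-16104378, coding GC 47.4%): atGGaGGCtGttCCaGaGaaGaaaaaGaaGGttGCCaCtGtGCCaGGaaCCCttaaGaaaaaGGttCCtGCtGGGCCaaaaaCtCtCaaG
Rps4x (chrX:102187994-102189300, coding GC 47.7%): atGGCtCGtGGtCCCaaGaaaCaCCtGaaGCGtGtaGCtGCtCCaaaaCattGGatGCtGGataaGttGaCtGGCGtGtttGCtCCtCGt

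Rpl13, Rplp2 and Rps2 held 52 to 68 G or C among these bases and Rpl22l1, Rpl7 and Rps4x 41 to 46. The split did not hold for every gene at the ends: of the high ones Rps10 held 42 and Rpl38 44, and of the low ones Rpl23a held 51 and Rps15a and Rps27rt 47 each. Over the whole coding sequence Rps10 had 56.6% GC, whereas Rpl38 combined a coding GC of 49.5% with differences on the log2 scale of 0.80 in KO 2 and 1.39 in KO 3.

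Paralog pairs stood in different ratios in the libraries. Rpl22l1 stood at 44.2%, 25.2% and 35.1% of Rpl22 in WT 1, WT 2 and WT 3 and at 22.2% and 12.5% in KO 2 and KO 3. Rpl36al, which encodes a near copy of RPL36A, stood at 132%, 205% and 167% of Rpl36a in WT and at 225% and 384% in KO. Rps27l, a p53-responsive relative of Rps27, stood at 162%, 208% and 204% of Rps27 in WT and at 238% and 437% in KO. The groups did not overlap in these 3 ratios, each with an exact two-sided permutation p = 0.2, the smallest this design allows, and with an adjusted p of 0.4 over the 6 ratios tested. In each, the value of KO 2 was close to that of WT 2.

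For Rpl7l1 the ratio to Rpl7 was 56.3%, 100% and 67.0% in WT and 80.8% and 168% in KO, and for Rps4l the ratio to Rps4x was 4.31%, 9.57% and 4.37% in WT and 8.57% and 37.2% in KO. Both of these overlapped between the groups (exact two-sided permutation p = 0.4, adjusted 0.48). The ratios joined genes of different coding composition, such as Rpl22l1 at 39.9% and Rpl22 at 48.4% GC.

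**Figure D5:**
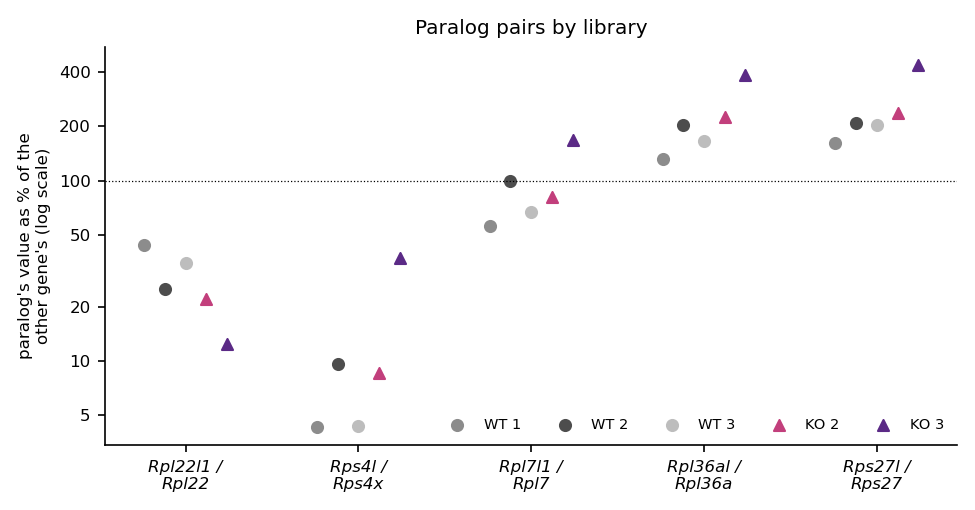
Points give the normalized read count of a paralog as a percentage of that of the other gene in each library (log scale; circles, WT; triangles, KO). For Rpl22l1 both KO points lie below the WT points (12.5% and 22.2% against 25.2% to 44.2%), and for Rpl36al and Rps27l both lie above them.

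Behind these ratios, Rpl36al itself had 1368, 985 and 1303 normalized reads in WT and 1758 and 2155 in KO (log2 fold change 0.69 with SE 0.22, limma adjusted p = 0.102). Rps27l had 2550, 1673 and 2360 in WT and 3123 and 2823 in KO (0.46, SE 0.22, limma adjusted p = 0.206). Rpl22 had 2017, 1202 and 1585 in WT and 1981 and 1338 in KO (0.06, SE 0.27, limma adjusted p = 0.906). Rpl36al and Rps27l had no overlap between the groups, and Rpl22 overlapped. The adjusted fold change of Rps27l was 1.01. Rpl7l1 was even across libraries, with 4124, 4401 and 4311 in WT and 4316 and 3976 in KO (-0.05, SE 0.16, limma adjusted p = 0.867). The other variant genes were barely detected: Rpl10l, a testis form, was at 0 in 4 libraries and at 3.04 in KO 3, Rpl39l at 0 to 1.67, and Rpl3l, a muscle form, at 1.03 to 18.2.

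Of 19 genes mutated in Diamond-Blackfan anemia, all tested, 7 had an unadjusted limma p under 0.05 and were higher in KO (36.8%, against 34.5% of tested members and 13.3% of all genes). None was lower, none passed the adjusted threshold, and the median log2 fold change was 0.17. Rps19, the most often mutated of them, had 5121, 3752 and 4256 normalized reads in WT and 6694 and 6798 in KO (log2 fold change 0.64 with SE 0.18, limma adjusted p = 0.0916). Rps26, a protein at the messenger RNA exit, had 2379, 1789 and 2130 in WT and 3355 and 3294 in KO (0.67, SE 0.19, limma adjusted p = 0.0879). For both genes the KO libraries were above all WT libraries and close to each other. The adjusted fold change of Rps19 was 0.16 (unadjusted p = 0.362 by limma) and that of Rps26 0.87.

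Rps24 and Rpl35a, also mutated in this anemia, overlapped between the groups. Rps24 had 2711, 1432 and 2427 normalized reads in WT and 2439 and 1563 in KO (log2 fold change -0.11, SE 0.31), and Rpl35a had 1240, 679 and 1073 in WT and 1160 and 729 in KO (-0.07, SE 0.31). In both genes KO 3 was close to WT 2, the lowest WT library. Their adjusted fold changes were positive, at 0.24 for Rps24 and 0.12 for Rpl35a, with an unadjusted p over 0.05. Rpl5 and Rpl11, which bind the smallest ribosomal RNA and hold back MDM2 when ribosome assembly fails, had log2 fold changes of -0.09 (SE 0.21) and 0.02 (SE 0.26). Rpl5 had 2566, 1757 and 2267 normalized reads in WT and 2151 and 1944 in KO, and Rpl11 had 1996, 1291 and 1705 in WT and 2060 and 1335 in KO. Adjusted for composition and length, both changed sign, to 0.53 for Rpl5 (unadjusted p = 0.00819, adjusted p = 0.235 by limma) and to -0.13 for Rpl11 (unadjusted p = 0.571).

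By position on the ribosome, the 8 large subunit genes at the nascent chain tunnel (Rpl4, Rpl17, Rpl19, Rpl23a, Rpl26, Rpl31, Rpl35 and Rpl39) had a median log2 fold change of -0.10, and 1 of them, Rpl35, had an unadjusted p under 0.05 (12.5%, against 13.3% of all genes higher in KO). The 4 genes of the messenger RNA entry (Rps2, Rps3, Rps9 and Fau) had a median of 0.48, with 2 genes at an unadjusted p under 0.05. The 4 genes listed for the messenger RNA exit were similar, with a median of 0.46 and also 2 genes at that threshold. Both counts are 50%, against 13.3% of all genes higher in KO. These medians stand beside 0.02 over all genes. Among adjusted fold changes the tunnel median was positive, at 0.07, that of the entry was 0.34 and that of the exit 0.16, beside -0.01 over all genes. The difference between the positions was not tested.

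Some members have roles or names that set them apart. Rps6, the substrate of the S6 kinases, had 3874, 2683 and 3398 normalized reads in WT and 3597 and 2615 in KO (log2 fold change -0.10, SE 0.22). Rps14, which lies in the region deleted in a human myelodysplastic syndrome, had 7745, 4279 and 6772 in WT and 8973 and 6353 in KO (0.31, SE 0.28). Rps27a, made as a fusion with ubiquitin, had 4104, 2053 and 3284 in WT and 3383 and 1788 in KO (-0.30, SE 0.34). All 3 overlapped between the groups, and the adjusted fold change of Rps14 was -0.046, opposite in sign. Rpsa, also known as a laminin receptor, had 9163, 7274 and 8936 in WT and 11975 and 11047 in KO (0.45, SE 0.18, limma adjusted p = 0.148). Rpl13a, which can leave the ribosome to silence inflammatory transcripts, had 8594, 5981 and 8126 in WT and 11779 and 11390 in KO (0.63, SE 0.20, limma adjusted p = 0.102). These 2 genes did not overlap, and their adjusted fold changes were 0.24 (Rpsa) and 0.40 (Rpl13a).

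Levels per length differed widely within the family. Levels are given as TPM, which is reads per kilobase of the median annotated transcript, scaled to the sum of such values in the library. In TPM, Rplp0 stood at 1458 ± 127 and Rpl13 at 1248 ± 108 in WT (SD, n = 3), and Rps3 at 1205 ± 213 and Rps2 at 1017 ± 107. At the low end were Rpl39 at 72.9 ± 35.2, Rpl22 at 79.6 ± 19.5, Rps4l at 29.99 ± 8.58 and Rps15a at 25.6 ± 7.20. The value of Rps15a rests on a median transcript length of 5130 bases against 390 coding bases. Rps3, which also takes part in DNA repair, had 13008, 8711 and 12101 normalized reads in WT and 15343 and 12991 in KO (log2 fold change 0.35, SE 0.22). Rpl39 had 628, 202 and 492 in WT and 396 and 342 in KO (-0.11, SE 0.45), with both KO values inside the WT range and an adjusted fold change of 0.079.

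Fau and Gnb2l1, ribosomal protein genes outside the name rule, lay in the same range. Fau, the precursor of RPS30, had 2417, 1585 and 2281 normalized reads in WT and 3267 and 2454 in KO (log2 fold change 0.46 with SE 0.24, limma adjusted p = 0.239). Gnb2l1, which encodes the scaffold RACK1, had 11109, 10030 and 11632 in WT and 13551 and 12806 in KO (0.27, SE 0.17, limma adjusted p = 0.306). In both genes the KO values were above all WT values. The adjusted fold change of Fau was -0.083 (unadjusted p = 0.723 by limma), opposite in sign, and Gnb2l1 had none because its symbol was not matched to the annotation.

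Genes that act around the ribosomal proteins had fold changes of both signs and none passed limma's adjusted threshold. Of 20 other genes with TOP messenger RNAs, mostly translation factors, 2 had an unadjusted p under 0.05 and were higher and 3 were lower, with a median log2 fold change of -0.06. With the length and GC trend removed, 3 were higher and 0 lower at that threshold (limma), with a median of 0.02. Over all genes 6.81% were then higher and 8.73% lower. The lowest p-values were those of Eif3e, a subunit of an initiation factor, at -1.14 (SE 0.34), and the elongation factor Eef2, at 0.60 (SE 0.18). Eif3e had 3801, 2221 and 3633 normalized reads in WT and 2017 and 996 in KO, and Eef2 had 19536, 21893 and 20668 in WT and 28589 and 34456 in KO. The groups did not overlap in either gene. After adjustment for composition and length, Eif3e stood at -0.33 (unadjusted p = 0.105) and Eef2 at 0.11 (unadjusted p = 0.466).

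Of 14 genes that control TOP translation, 4 were higher and 2 lower at an unadjusted p under 0.05 (median 0.27, range -0.94 to 1.32). Those of lowest p were the 2 lower ones, Larp4 at -0.89 (SE 0.20) and the S6 kinase gene Rps6kb1 at -0.94 (SE 0.21). Of 9 genes that transcribe the family or have been tied to its promoters, 1 was higher, Myc at 0.64 (SE 0.24), and 1 lower, Sp1 at -0.89 (SE 0.26). Of 12 chaperones and importins of ribosomal proteins, 2 were higher and 2 lower, led by Ipo7 at -1.26 (SE 0.35) and Grwd1 at 0.63 (SE 0.21). Of the 4 genes of the MDM2 and p53 response to free ribosomal proteins, Trp53 (0.46, SE 0.16) and its target Cdkn1a (1.46, SE 0.53) were higher and Mdm4 (-1.04, SE 0.35) lower at an unadjusted p under 0.05, with adjusted p-values of 0.110 to 0.128. Cdkn1a had 67.4, 155 and 68.6 normalized reads in WT 1, WT 2 and WT 3 and 388 and 158 in KO 2 and KO 3. For this gene KO 3 was thus close to WT 2, and only KO 2 was well above WT. Of 11 tested genes of ribosome rescue and hibernation, 1 was higher and 2 lower, led by Abce1 at -1.23 (SE 0.28) and Nemf at -1.14 (SE 0.27). The adjusted fold changes of the genes named here were smaller: Larp4 stood at -0.091, Rps6kb1 at -0.14 and Grwd1 at 0.11, each with an unadjusted p over 0.05. Sp1 was then at -0.46, Ipo7 at -0.48, Mdm4 at -0.48, Trp53 at 0.21, Abce1 at -0.43 and Nemf at -0.52, of which Abce1 and Nemf had an unadjusted p under 0.05. Myc (0.43) and Cdkn1a (1.17) also had one over 0.05. Over whole lists, with genes not named here, adjusted fold changes ran from -0.67 to 0.85 for TOP control. For ribosome rescue and hibernation they ran from -0.52 to 0.63. Against 13.3% of all genes higher and 14.5% lower, these lists did not share the one-sided counts of the ribosomal protein genes. This held before the length and GC trend was removed. After that, the list of 20 TOP genes had 3 higher and 0 lower, so its counts were on 1 side too. The other lists then had 0 to 2 higher and 0 to 2 lower. The contrast between these lists and the ribosomal protein genes was not tested.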

How the data were processed

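RNA sequencing libraries of sorted mouse HSCs (3 WT, 2 KO) were prepared with a SMART-Seq v4 low-input kit. The authors deposited normalized read counts per gene symbol (signal: reads divided by a size factor of the library). The submitters' processing notes name mm10, STAR, featureCounts and DESeq2; versions, annotation and the use of strand are not given in the sources used here. A table of the authors' own comparison (fold changes, p-values) was not used. Dividing each column by its smallest positive value gave whole reads, to within 0.001 of a read, for 100% of values (12539599 to 22779536 per library). Such reads are not independent molecules.

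WT and KO were compared with limma (3.58.1; trend) on log2(value + 1), in R 4.3.3, over the 13661 genes that reached 10 normalized reads in 2 or more libraries, with Benjamini-Hochberg adjustment; a member counted as called at an adjusted p under 0.05. This scale understates changes of low genes. edgeR (4.0.16) and DESeq2 (1.42.0) on recovered reads were alternatives, beside 16 others. Models were tested on simulated data. Lengths and composition came from GENCODE M21 (GRCm38) by symbol. The members and lists were chosen with earlier results of these data known. Genes named were the 3 highest and 3 lowest fold changes and the 2 highest and 2 lowest levels per subunit. Preset lists by role, Syncrip, and the 2 lowest p-values of other lists were named too. Rpl35, Rpl36, Rps20, Cdkn1a and single neutrophil genes were named after their values were seen. A few genes are not reported here by name.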

Additional observations from a re-analysis of the deposited data

How the results depend on the processing

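Of 629 fold changes of named genes over 18 alternatives, 569 kept their direction and side of the adjusted threshold, 21 passed it newly (11 with DESeq2, 10 without KO 2), 7 of Syncrip lost it and 32 changed sign. Limma called 1 gene of all tested; 2 were called with edgeR or a pseudocount of 10, 0 with all genes above 0, array weights or voom, 2290 with DESeq2, 6 with the replicate block, and 0 to 3024 with a library left out. Members called were 23 with DESeq2 and 0 to 16 with a library left out (16 without KO 2), and members without overlap 35 to 55 with a library left out (55 without KO 3) and 30 to 39 otherwise (30 with the length and GC trend removed). With the replicate number as a block the medians were 0.40 (large) and 0.45 (small), 0 members were called and these fold changes turned positive: Rpl39 0.22, Rps24 0.067, Rpl35a 0.11, Rpl5 0.035 and Rps6 0.023. Same-numbered libraries did not deviate together (r -0.06 and -0.18), so the numbers were not taken as pairs. With the length and GC trend removed, the sign changed for Rpl39 (0.079), Rps27rt (0.083), Rps24 (0.24), Rpl35a (0.12), Rpl5 (0.53), Rpl11 (-0.13), Rpl7l1 (0.027), Fau (-0.083) and Rps14 (-0.046). With a library left out, fold changes that crossed 0 ran from -0.59 to 0.22 for Rpl39, -0.43 to 0.21 for Rps24, -0.41 to 0.26 for Rpl35a, -0.24 to 0.035 for Rpl5, -0.33 to 0.13 for Rps6, -0.23 to 0.34 for Rpl22, -0.29 to 0.33 for Rpl11, -0.99 to 0.085 for Rpl23a, -0.87 to 0.21 for Rps27rt, -0.11 to 0.013 for Rpl7l1 and -0.76 to 0.16 for Rps27a. Where only 1 KO library remained, it was assumed to vary like the WT libraries. Why the counts of calls differed between tools was not tested.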

Other observations

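Symbols that the name rule dropped were read from the same table. The row Rpl34-ps1 had 2116, 1224, 1786, 2379 and 2034 normalized reads in WT 1, WT 2, WT 3, KO 2 and KO 3, beside 2155, 1251, 1814, 2433 and 2113 for Rpl34, so reads of the pair may be shared. Of the other pseudogene rows, Rpl14-ps1 had 246, 173 and 265 in WT and 287 and 566 in KO (log2 fold change 0.85, SE 0.37), and Rplp2-ps1 had 137, 115 and 120 in WT and 187 and 257 in KO (0.82, SE 0.34), both without overlap between the groups. Among the S6 kinase genes, Rps6ka3 had 671, 407 and 449 in WT and 274 and 184 in KO (-1.14, SE 0.32) and Rps6ka4 850, 1148 and 1015 in WT and 1621 and 1973 in KO (0.84, SE 0.21). None of these symbols passed limma's adjusted threshold.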
